A study of Mus musculus with 20 samples.

Results

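The response of a lung carcinoma to cisplatin alone was examined in 10 LLC1 tumors, of 20 tumors sequenced in all. LLC1 is the Lewis lung carcinoma line, derived from a C57BL mouse. The cells were injected with Matrigel under the skin of the right flank of male C57BL6/J mice aged 8 to 10 weeks, which were assigned at random once a tumor had reached 100 mm3. Members were chosen by label: 5 tumors from mice given cisplatin without KW6002 (titled cisplatine, replicates 1 to 5) were set against 5 vehicle tumors. Of these, replicate 1 is titled vehicle and replicates 2 to 5 vehicle_vehicle, and the labels do not say whether their treatment differed. Both were taken as mice given only the carrier of KW6002. The other 10 tumors came from mice given KW6002, an antagonist of the adenosine receptor encoded by Adora2a, with or without cisplatin. All hosts were wild type by their labels and carried the same line, and the cisplatin dose and the day of collection could not be settled from the sources used here. One library was made per tumor, so that the replicate error is that between animals. The libraries held 28.8 to 37.5 M counted reads in the vehicle group (31.4 ± 3.56 M, mean ± SD, n = 5) and 29.8 to 39.3 M in the cisplatin group (33.7 ± 3.67 M, n = 5).

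Cisplatin binds to purine bases and crosslinks DNA. Cells that still have an active p53 respond to such lesions by transcribing a set of p53 target genes, which act in cell cycle arrest, DNA repair and apoptosis. A subcutaneous tumor is a mixture of carcinoma cells with vessels, fibroblasts and leukocytes of the host, all of which are exposed to the drug. In RNA from whole tumors, fewer cells of a type and less RNA per cell cannot be told apart.

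Of 35226 genes in the table, 16665 passed a filter on low counts by group and were tested with edgeR. A gene was called when its Benjamini-Hochberg adjusted P was under 0.05 and its log2 fold change was at least 0.32 in size. Of the genes tested, 1762 were called, of which 1001 were higher in cisplatin than in vehicle tumors (6.01% of those tested) and the others were lower (4.57%). The change was at least 1 on the log2 scale for 276 of the higher and 182 of the lower genes. Values did not overlap between the groups for 593 of the genes called higher and 457 of those called lower, and over all genes tested, called or not, 5.23% were higher and 5.12% lower without overlap. Without vehicle tumor 1, the tumor with the differing title, 1616 genes were called. A gene at too few reads in either kind of tumor can pass such a filter only through the kind where it is high, so that the filter favours a difference. Of the genes tested, 15383 reached the level of the filter in at least 5 tumors without and in 5 with cisplatin. Of the 1282 that did not, 159 were called. Members of the lists counted below that are among these 159 are named beside their list. The lists were chosen with earlier results of these data known, so their shares are descriptions and not independent support. The median log2 fold change was 0.69 over the genes called higher, -0.58 over the genes called lower and 0 over all genes tested.

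**Figure D1:**
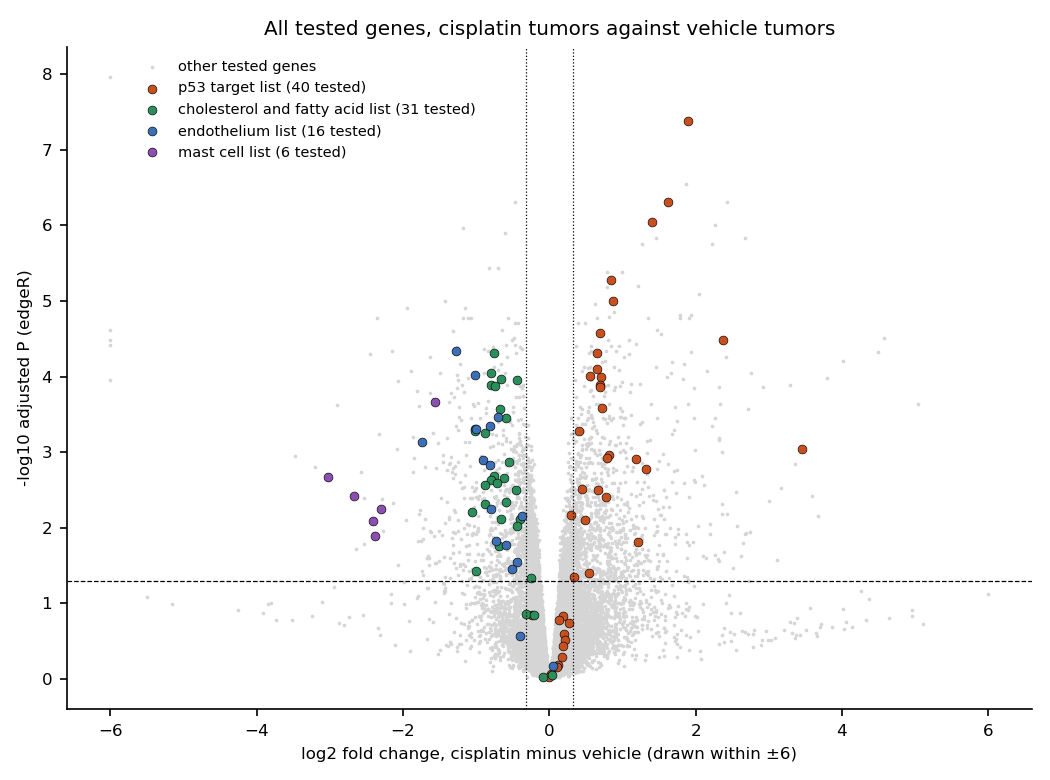
All 16665 tested genes, with the log2 fold change of cisplatin over vehicle tumors on the x axis (drawn within ±6) and -log10 of the edgeR adjusted P on the y axis. Dashed and dotted lines mark the thresholds, and coloured points are 4 gene lists: p53 targets lie mostly to the right of 0, while genes of cholesterol synthesis, endothelium and mast cells lie mostly to the left.

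The vehicle and cisplatin tumors were separated along the first principal component of these 10 libraries (32.9% of the variance), where vehicle tumors lay from -40.5 to -11 and cisplatin tumors from 1.8 to 45.7. Along the second component (25.2%), cisplatin tumors 1, 2 and 3 lay at 43.3, 38.7 and 24.9, whereas cisplatin tumors 4 and 5 lay at -30.2 and -21.8. The library codes of vehicle tumor 1 and cisplatin tumors 1 and 2 belong to an earlier run of numbers and those of the other 7 tumors to a later run. Skeletal muscle RNA was also uneven. The summed level of 15 muscle markers (in CPM, the read count of a gene scaled by the size of its library) was 9.71, 9.74, 94.8, 10.2 and 10.9 in vehicle tumors 1 to 5, and 270, 6.73, 450, 20.6 and 347 in cisplatin tumors 1 to 5. Cisplatin tumors 1, 3 and 5 thus held far more muscle RNA than the others, vehicle tumor 3 held some, and Atp2a1, the calcium pump of fast muscle, measured 7.64 CPM there and 0.0275 to 0.276 CPM in the other vehicle tumors. No muscle marker passed the edgeR test (1 at an unadjusted P under 0.05, 1 by DESeq2 and 0 by limma voom). Its part in the results was not tested, and counts without these 4 tumors, which leaves 2 cisplatin tumors, are given beside the 8 main gene groups.

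Of 12 lung and epithelial markers, 6 were tested. The surfactant gene Sftpc, the club cell gene Scgb1a1 and the epithelial adhesion gene Epcam did not pass the filter on low counts, so that these defining markers of lung epithelium were at or near 0. Simple epithelial keratin was present in all tumors. Krt8 measured 128, 134, 138, 117 and 126 CPM in vehicle tumors 1 to 5 and 170, 165, 185, 215 and 191 CPM in cisplatin tumors 1 to 5, which did not overlap (log2 fold change 0.53 ± 0.08 SE, edgeR adjusted P = 0.000288). Foxa2, a transcription factor of endoderm, was also called higher (0.82), and so was Krt7, which passed the filter only through tumors with cisplatin.

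Most targets of p53 rose after cisplatin. Of 41 listed genes, 40 were tested and 27 were called higher, beside 6.01% of all genes, while 13 were not called. One of the 27, Gdf15, passed the filter only through tumors with cisplatin, and without it 26 of 39 were called. The list had a median log2 fold change of 0.65, and 22 of its members were higher without overlap between the groups, beside 5.23% of all genes. Without the 4 tumors with the most muscle RNA 22 members were called higher. The list covers cell cycle inhibitors, negative regulators of p53, apoptosis genes and metabolic enzymes.

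Cdkn1a (ENSMUSG00000023067, on the plus strand of chromosome 17), which encodes the cyclin-dependent kinase inhibitor p21, measured 299, 393, 262, 344 and 260 CPM in vehicle tumors 1 to 5 and 461, 581, 550, 470 and 505 CPM in cisplatin tumors 1 to 5. Every cisplatin tumor was above every vehicle tumor (log2 fold change 0.72 ± 0.11 SE, edgeR adjusted P = 0.00026). Mdm2, the ubiquitin ligase that degrades p53, measured 159, 173, 140, 170 and 162 CPM in vehicle and 213, 294, 306, 226 and 261 CPM in cisplatin tumors. These groups did not overlap either (0.69 ± 0.09, adjusted P = 2.61e-05). Sesn2, a stress-induced inhibitor of mTORC1 signaling, went from 32.2 to 41.7 CPM in vehicle tumors to 55.6 to 72.5 CPM in cisplatin tumors (0.85 ± 0.09, adjusted P = 5.31e-06). Btg2, an antiproliferative gene, was also called higher (0.79, adjusted P = 0.00118). The transcript of p53 itself was not called. Trp53 measured 247, 218, 223, 202 and 204 CPM in vehicle and 244, 242, 248, 226 and 239 CPM in cisplatin tumors (0.13 ± 0.06, adjusted P = 0.164).

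Several proapoptotic targets rose. Pmaip1, which encodes the BH3-only protein NOXA, measured 8.88, 21.6, 10.7, 15.7 and 10.7 CPM in vehicle and 35.0, 47.3, 42.0, 22.0 and 22.3 CPM in cisplatin tumors (1.32 ± 0.25, adjusted P = 0.00166). The lowest cisplatin tumors, 4 and 5, were just above the highest vehicle tumor. Bbc3, which encodes PUMA, was higher by 0.66 ± 0.14 (adjusted P = 0.00314) and Bax, a pore-forming effector, by 0.41 ± 0.07 (adjusted P = 0.000521). Bcl2l1, which encodes the survival protein BCL-XL, rose with them, from 95.2, 109, 96.2, 93.3 and 90.1 CPM to 131, 134, 163, 142 and 149 CPM (0.57 ± 0.07, adjusted P = 3.91e-05). Over the whole list of the BCL2 family and caspases, the 4 of 27 tested members called higher, beside 6.01% of all genes, were Pmaip1, Bbc3, Bax and Bcl2l1, and 1 was called lower, beside 4.57%, Birc3 at -0.38. Casp8 and Casp9 were not called (-0.16 and -0.10).

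Among the enzymes and secreted or surface proteins on the list, Dcxr, a carbonyl reductase, measured 9.64, 12.6, 9.11, 8.81 and 10.2 CPM in vehicle and 21.7, 24.8, 31.9, 30.1 and 25.2 CPM in cisplatin tumors. The groups were far apart (1.41 ± 0.13, adjusted P = 9.07e-07). Gdf15, a cytokine of stressed cells, was at 3 to 6 reads in vehicle tumors. It measured 0.207, 0.105, 0.0979, 0.138 and 0.163 CPM in vehicle and 0.169, 0.660, 1.42, 3.13 and 2.58 CPM in cisplatin tumors, and cisplatin tumor 1 lay within the vehicle range (3.45 ± 0.62, adjusted P = 0.000915). Fas, the death receptor, was higher by 0.82 ± 0.15 (adjusted P = 0.0011). Other known targets were not called, among them Zmat3 (0.26, adjusted P = 0.182), Rrm2b (-0.24), Ddb2 (0.22) and Sesn1 (0.17). Plk3 and Eda2r were called with adjusted P values close to the threshold (0.0445 and 0.0401).

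Sequences with the pattern of a p53 response element were found in the promoter windows of 5 genes of the list, which are 5 of the 24 called members that had a window. They are shown to give the sequence at genes that moved. The windows are those of RefSeq on GRCm38.p6, from 250 bases before to 50 after a start site, and a match was a pair of adjoining decamers with at most 2 mismatches and the central C and G of each decamer kept, on either strand. It was found in 5 of the 46 windows of the 32 members that had one (10.9%), and in 0.326% of all 32851 windows. Capitals mark the matched bases, and each line is 30 bases on the strand of the gene.
Cdkn1a, chr17:29090923-29090952, plus strand: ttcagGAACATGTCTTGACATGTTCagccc
Ccng1, chr11:40755457-40755486, minus strand: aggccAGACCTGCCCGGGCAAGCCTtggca
Ckap2, chr8:22185998-22186027, minus strand: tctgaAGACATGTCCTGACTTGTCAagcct
Gtse1, chr15:85859940-85859969, plus strand: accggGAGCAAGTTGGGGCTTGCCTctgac
Cd80, chr16:38458817-38458846, plus strand: gctcaGAACAGGCCTGGACAAGTCAcctcc
Among these genes, Ccng1 encodes cyclin G1, Ckap2 and Gtse1 encode proteins of the microtubule cytoskeleton, and Cd80 encodes a costimulatory ligand of T cells. Ccng1 measured 289, 459, 289, 407 and 317 CPM in vehicle and 608, 783, 661, 500 and 450 CPM in cisplatin tumors, where cisplatin tumor 5 lay just under vehicle tumor 2 (0.77 ± 0.16, adjusted P = 0.0039). Ckap2 was higher by 0.66 ± 0.09 and Gtse1 by 0.69 ± 0.10, without overlap for either gene. A match in a window is a description and not a mapped binding site. The list is of known p53 targets, so a share above that of all windows is no test of a cause. The same holds for the elements of the other lists below.

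**Figure D2:**
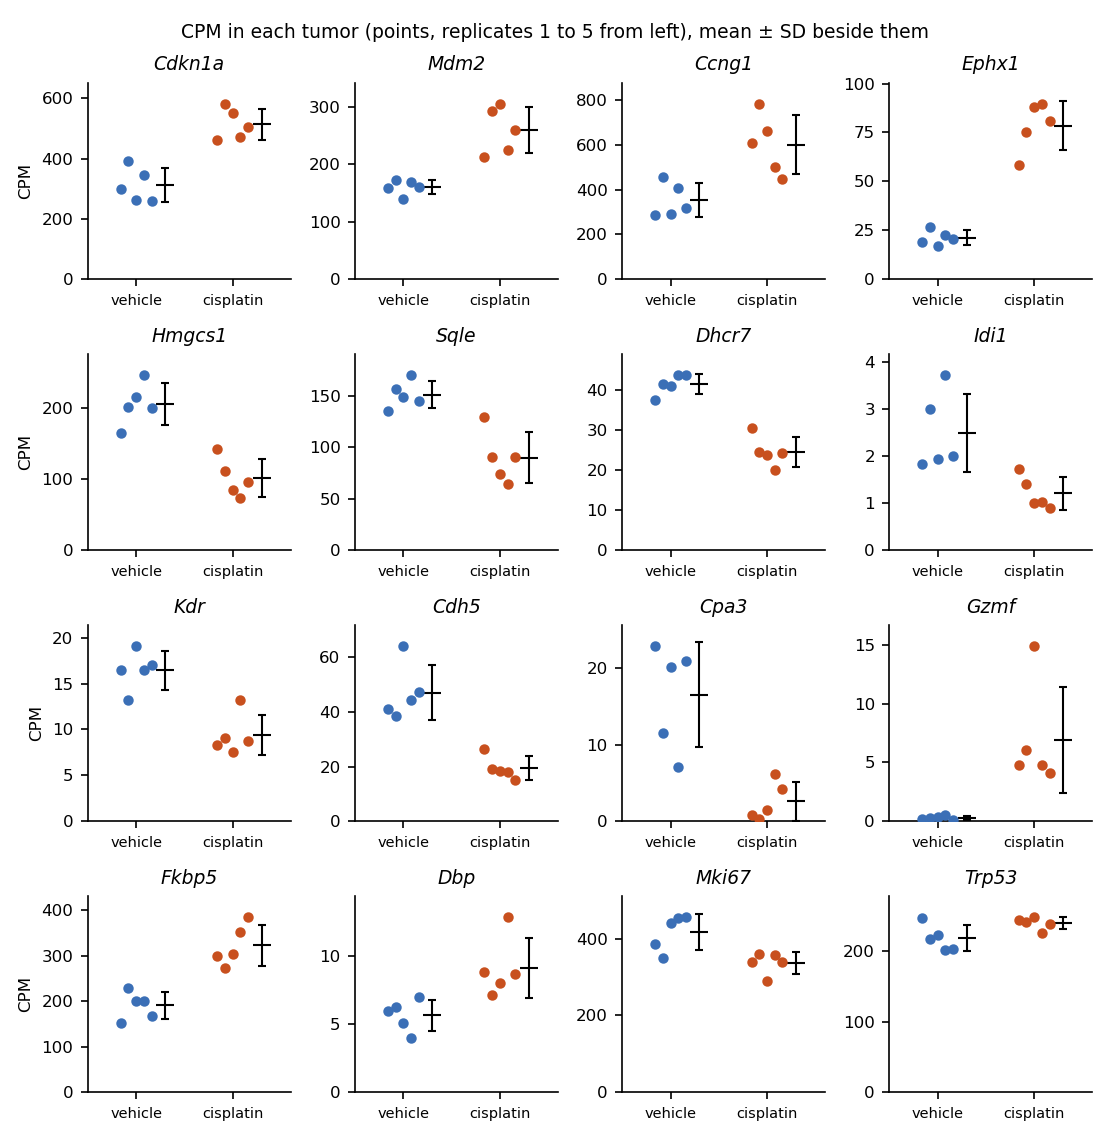
CPM of 16 genes in each of the 5 vehicle (blue) and 5 cisplatin tumors (orange), one panel per gene with the y axis from 0, points in the order of replicates 1 to 5, and the mean ± SD to the right of each group. Cdkn1a, Mdm2, Ephx1, Gzmf, Fkbp5 and Dbp were higher without overlap after cisplatin, Hmgcs1, Sqle, Dhcr7, Idi1, Cdh5 and Cpa3 were lower without overlap, and Trp53 was not called. Gzmf passed the filter only through tumors with cisplatin.

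Among proliferation genes, replication genes were mostly at small negative values. Of 38 genes of the G2 and M phases, 0 were called by edgeR (7 at an unadjusted P under 0.05, of which 6 were lower), 0 by DESeq2 and 2 lower by limma voom, and their median log2 fold change was -0.05. Mki67, the proliferation marker Ki-67, measured 386, 350, 439, 454 and 455 CPM in vehicle and 340, 359, 289, 356 and 340 CPM in cisplatin tumors. Its log2 fold change of -0.31 ± 0.09 had an adjusted P of 0.0304 but was just under the limit of 0.32. Of 42 DNA replication genes, 7 had a positive log2 fold change and the median was -0.13. Pola1 (-0.36) was called lower and Tk1 (0.34, just inside the threshold) higher, counts below the 4.57% and 6.01% of all genes, while 14 were lower and 1 higher at an unadjusted P under 0.05 and limma voom called 3 lower. Both calls were lost under several alternatives, Pola1 without vehicle tumor 4 or cisplatin tumor 4 among them. Pcna (-0.14), Top2a (-0.15), Ccnd1 (0.28) and Myc (-0.19) were not called. No calls were made either among nuclear genes of oxidative phosphorylation (0 of 38 by edgeR, 7 unadjusted, 0 by DESeq2 and by limma voom) and of ribosome biogenesis (0 of 36, 12 unadjusted and all lower, 0 by DESeq2 and by limma voom).

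Genes that repair platinum lesions were called about as often as all genes. Of 48 tested members of nucleotide excision, Fanconi, recombination, translesion and mismatch repair, 2 were called higher and 2 lower, beside 6.01% and 4.57% of all genes, and the median was 0. Ercc5, the XPG endonuclease that incises 3' of a lesion, measured 65.9, 91.2, 63.9, 93.3 and 74.4 CPM in vehicle and 123, 150, 133, 101 and 94.6 CPM in cisplatin tumors, so that all cisplatin tumors were the higher ones (0.63 ± 0.14, adjusted P = 0.00483). Ercc1 was higher by 0.40 ± 0.12 (adjusted P = 0.0217), a call that was lost without vehicle tumor 4 or 5 or cisplatin tumor 3 or 4. Rad51c, of recombination repair, measured 5.77, 4.99, 6.07, 6.41 and 6.10 CPM in vehicle and 3.59, 3.48, 3.24, 3.89 and 3.56 CPM in cisplatin tumors, a clear separation (-0.72 ± 0.13, adjusted P = 0.00059). Of 15 tested transporters and copper chaperones linked to platinum handling, Abcb1b (0.54), Slc31a2 (0.36) and Abcc3 (0.37) were called higher, beside 6.01% of all genes, whereas the copper importer Slc31a1 (-0.07) and the exporter Atp7a (-0.20) were not called. Abcc3 lost its call in 11 of 23 alternatives, Abcb1b in 3 and Slc31a2 in 2. Of 31 genes of the NRF2, glutathione and metallothionein list, 5 were called higher, beside the same share: Gstm2 (0.57), Gclc (0.75), Gstm1 (0.72), Nqo1 (0.63) and Fth1 (0.40). Hmox1 (0.45), Mt1 (0.82) and Mt2 (0.97) did not pass the test.

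Genes of cholesterol synthesis fell together after cisplatin. Of 31 tested genes of sterol and fatty acid synthesis, 26 were called lower, beside 4.57% of all genes, with a median of -0.67, and 17 were lower without overlap, beside 5.12% of all genes. Without the 4 tumors with the most muscle RNA 24 were called lower. The fall ran from the first committed steps of the mevalonate route to its last reductases. Hmgcs1, HMG-CoA synthase, measured 166, 202, 216, 247 and 200 CPM in vehicle and 143, 112, 84.3, 74.2 and 95.7 CPM in cisplatin tumors (-1.02 ± 0.17, adjusted P = 0.000498). Fdft1, squalene synthase, measured 66.8, 75.9, 73.4, 83.0 and 75.5 CPM in vehicle and 59.7, 40.3, 37.6, 35.9 and 42.6 CPM in cisplatin tumors (-0.79 ± 0.11, adjusted P = 8.82e-05). In both genes cisplatin tumor 1 was the highest of its group and cisplatin tumor 4 the lowest, and the groups did not overlap. Sqle, squalene epoxidase, was lower by -0.75 ± 0.15, and Dhcr7, which makes cholesterol from its last precursor, by -0.76 ± 0.10 (adjusted P = 4.82e-05).

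Regulators and fatty acid genes were in part lower too. Srebf2, the transcription factor of this pathway, was lower by -0.54 ± 0.10 (adjusted P = 0.00134), while Srebf1, its relative in fatty acid synthesis, was not called (0.03). Of the fatty acid genes, the desaturases Fads1 (-0.44), Fads2 (-0.88), Scd2 (-0.41) and Scd1 (adjusted P = 0.0373) and the elongase Elovl6 (-0.59) were called lower. Fasn (-0.21) and Acaca (-0.25) were not called. Scd1 was uneven in the vehicle group, at 234, 731, 250, 269 and 242 CPM. Vehicle tumor 2, the high one, also held the most fat marker RNA: the summed CPM of 9 adipocyte markers was 389 there and 31.0 to 47.9 in the other vehicle tumors. The part of that RNA in the Scd1 value was not tested, and without vehicle tumor 2 25 of the 31 were called lower. One promoter window of the list held the sterol element TCACNCCAC on either strand (of 25, or 4.0%, beside 1.24% of all windows). It is shown because it lies before the first gene of the route that fell:
Hmgcs1, chr13:119690204-119690233, plus strand: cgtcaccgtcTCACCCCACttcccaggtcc

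Endothelial genes were lower in cisplatin tumors. Of 16 tested markers, 14 were called lower, beside 4.57% of all genes, with a median of -0.76, and 8 were lower without overlap, beside 5.12% of all genes. Their summed CPM was 356 to 480 in vehicle and 248 to 297 in cisplatin tumors. Cdh5, the VE-cadherin of endothelial junctions, measured 40.9, 38.6, 63.9, 44.1 and 47.2 CPM in vehicle and 26.6, 19.2, 18.5, 17.9 and 15 CPM in cisplatin tumors. No cisplatin tumor reached the vehicle range (-1.27 ± 0.16, adjusted P = 4.54e-05). Pecam1, or CD31, was lower by -1.02 ± 0.14 (adjusted P = 9.42e-05) and Kdr, the main VEGF receptor, by -0.81 ± 0.14 (adjusted P = 0.000452). Kdr was highest in cisplatin tumor 4, at 13.2 CPM, level with the lowest vehicle tumor. Cldn5, the claudin of tight junctions, fell the most among the markers (-1.74 ± 0.30). Eng (0.05) and Plvap (-0.40) were not called. Vehicle tumor 3 had the highest endothelial sum. Without the 4 tumors with the most muscle RNA, 5 of the 16 were called lower and the median was -0.54.

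Several markers of the cells around the endothelium were lower too. Of 9 tested markers of pericytes and smooth muscle, 6 were called lower, beside 4.57% of all genes, and the median was -0.89. The count was 4 without the 4 tumors with the most muscle RNA. Rgs5, a pericyte regulator of G protein signaling, measured 37.3, 32.3, 45.4, 65.8 and 55.4 CPM in vehicle and 20.6, 18.7, 18.8, 23.3 and 17.6 CPM in cisplatin tumors, which were both lower and less spread (-1.26 ± 0.16, adjusted P = 4.06e-05). Abcc9, a channel subunit of pericytes, was lower by -1.07 ± 0.13 (adjusted P = 1.66e-05) and Cspg4, or NG2, by -1.46 ± 0.27 (adjusted P = 0.0011). Des, which is also on the skeletal muscle list, was at 2.03 and was not called. Among the 12 lower genes with the smallest adjusted P, Adgrf5 (-1.42 ± 0.16), Pcdh12 (-1.95 ± 0.22) and Sparcl1 (-1.15 ± 0.13) are likewise known from endothelium. Pcdh12, a protocadherin of endothelial junctions, measured 5.15, 4.54, 7.74, 5.81 and 6.85 CPM in vehicle and 2.64, 1.40, 1.45, 1.26 and 1.06 CPM in cisplatin tumors. Cisplatin tumor 1 was the highest of its group and still below the vehicle range.

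Mast cell transcripts fell as well. All 6 listed markers were tested and called lower, beside 4.57% of all genes, with a median of -2.40. One of them, Ms4a2, a chain of the IgE receptor, passed the filter only through tumors without cisplatin, and without it 5 of 5 were called, with a median of -2.39. The summed CPM of the 6 was 73.0, 41.5, 71.5, 27.7 and 71.9 in vehicle tumors 1 to 5 and 7.10, 2.95, 6.75, 21.9 and 15.5 in cisplatin tumors 1 to 5. The groups did not overlap in this sum, although cisplatin tumor 4 came close to vehicle tumor 4. Cpa3, a granule carboxypeptidase, measured 22.8, 11.5, 20.1, 7.07 and 20.9 CPM in vehicle and 0.778, 0.330, 1.48, 6.13 and 4.19 CPM in cisplatin tumors (-2.67 ± 0.55, adjusted P = 0.00379). Mcpt4, a mast cell chymase, was lower by -3.02 ± 0.58 (adjusted P = 0.00216), and Kit, the receptor of stem cell factor, by -1.57 ± 0.24 (adjusted P = 0.000217). Ms4a2 had at most 10 reads in any cisplatin tumor. The count depended on the tumors used. It was 3 of 6 with the later library codes, which leave out cisplatin tumors 1 and 2, and 1 of 6 without the 4 tumors with the most muscle RNA, where the median was -1.86.

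Markers of other leukocytes were in part called. Of 16 macrophage markers, Apoe (1.36) and Mrc1 (0.64) were called higher, beside 6.01% of all genes (5 by DESeq2), and the summed CPM was 2857 to 4082 in vehicle and 3785 to 5892 in cisplatin tumors, which overlapped. Of 6 tested neutrophil markers, the chemokine receptor Cxcr2 (-1.62) and the calprotectin subunit S100a8 (-1.55, adjusted P = 0.0288) were called lower, beside 4.57% of all genes (3 by DESeq2). S100a8 lost its call in 11 of 23 alternatives. The adhesion receptor and antigen receptor genes of T cells were not called by edgeR, Cd3e at -1.07 among them, while limma voom called 1 of the 18 T and NK cell markers lower. Of 11 listed red blood cell genes, 6 were tested, and 5 of these had at most 2 reads in any cisplatin tumor, so that they passed the filter through tumors without cisplatin and their count is no support for a fall of the list. Hba-a1, an alpha globin, measured 2.62, 0.316, 1.53, 3.33 and 1.11 CPM in vehicle and 0, 0, 0, 0.0307 and 0.0287 CPM in cisplatin tumors. Against a floor of 3 counts in a library this is at least 20.1-fold lower. Hbb-bs, a beta globin, measured 18.6 to 81.1 CPM in vehicle and 0 to 0.0508 CPM in cisplatin tumors, at least 503-fold lower, and Hba-a2, Hbb-bt and Alas2, the heme enzyme of red cells, had 0 reads in every cisplatin tumor.

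**Figure D3:**
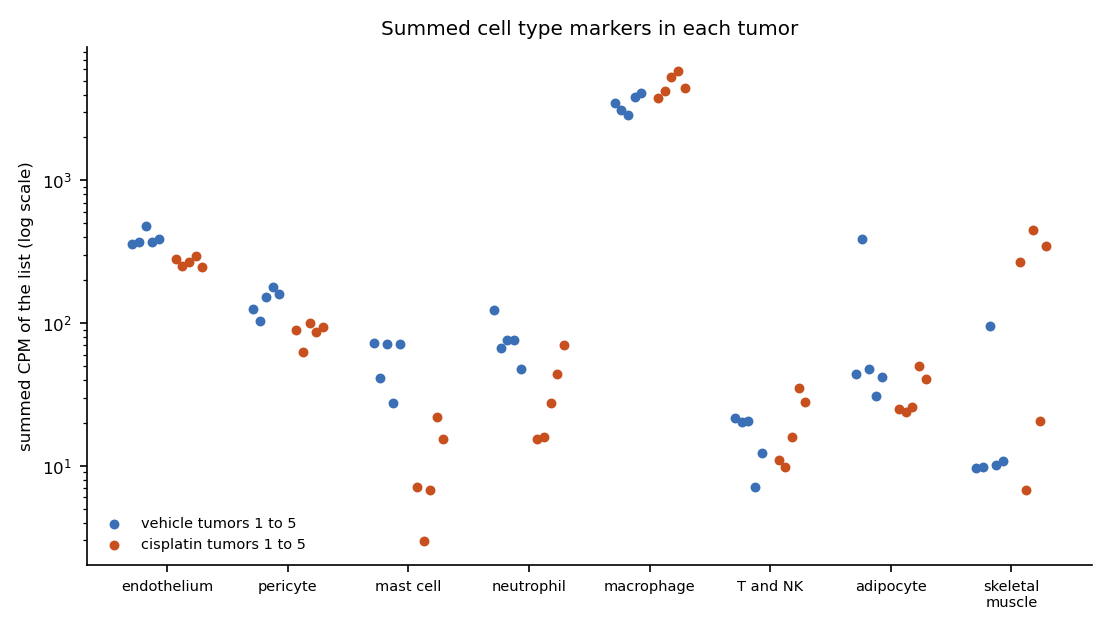
Summed CPM of 8 cell type marker lists on a log scale, with the 5 vehicle tumors (blue) and the 5 cisplatin tumors (orange) as points in the order of replicates 1 to 5. Endothelium, pericyte and mast cell sums do not overlap between the groups, macrophage and T and NK cell sums do, and skeletal muscle RNA stands out in cisplatin tumors 1, 3 and 5.

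Some cytotoxic granule genes were higher. Perforin, Prf1, measured 0.275 to 1.66 CPM in vehicle and 2.13 to 5.25 CPM in cisplatin tumors, and was the 1 of 18 T and NK cell markers that was called higher, a share near that of all genes (2.00 ± 0.41, adjusted P = 0.00249). Of 10 granzyme genes in the table, 8 were tested, a family looked at after its values were seen. Gzmc was called higher (2.31 ± 0.39, adjusted P = 0.000652). Gzmd, Gzme, Gzmf and Gzmg were called higher as well, but these 4 passed the filter only through tumors with cisplatin. Their tests, their lack of overlap and the count of called granzymes are therefore no support for a rise of the family. These 5 genes lie in a single cluster on chromosome 14. Gzmf measured 0.173, 0.246, 0.392, 0.495 and 0.0978 CPM in vehicle and 4.77, 6.09, 14.9, 4.81 and 4.13 CPM in cisplatin tumors (4.58 ± 0.55, adjusted P = 3.08e-05). Cisplatin tumor 3 was the highest in each of the 5 genes, and none of them overlapped between the groups. The raw counts of Gzmf were 3 to 18 reads in vehicle and 141 to 492 in cisplatin tumors. Gzma (1.05, adjusted P = 0.224) and Gzmb (1.15, adjusted P = 0.1), the granzymes of most cytotoxic lymphocytes, were not called. Neighbouring granzymes are close relatives, and reads were counted only where they aligned uniquely, so their separate values are uncertain.

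Part of the interferon-responsive genes fell. All 44 tested members had a negative log2 fold change, 15 were called lower beside 4.57% of all genes, and the median was -0.61. Ddx58, which encodes the RNA sensor RIG-I, measured 50.4, 59.0, 50.4, 53.9 and 50.4 CPM in vehicle and 39.7, 34.1, 38.9, 39.5 and 33.2 CPM in cisplatin tumors (-0.51 ± 0.09, adjusted P = 0.000431). Zbp1, a sensor of left-handed nucleic acid, measured 26.6, 34.0, 18.6, 21.9 and 22.8 CPM in vehicle and 13.3, 7.34, 12.9, 12.9 and 14.3 CPM in cisplatin tumors (-1.03 ± 0.22, adjusted P = 0.00326). Both genes were without overlap. Cxcl10, a chemokine for T cells, was lower by -1.57 ± 0.40 (adjusted P = 0.0128), and Stat2, a subunit of the interferon-activated transcription factor, by -0.44 (adjusted P = 0.0041). Ifit1 was not called (-1.17, adjusted P = 0.0751). The count fell to 8 without vehicle tumor 2, vehicle tumor 3 or cisplatin tumor 2, to 9 without cisplatin tumor 1, to 5 with the later library codes (median -0.34) and to 4 without the 4 tumors with the most muscle RNA (median -0.64).

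The interferon element, searched as GAAA, any 2 bases and GAAA again, was present on either strand in 22 of the 37 promoter windows of this list (59.5%), and in 3.44% of all windows. Of the 13 called genes with a window, 11 held it, beside 21 of the 32 members with a window, called or not. It is shown for 3 genes that fell, with 1 match of each window in capitals. The windows of Isg15 and Irgm1 hold further matches that run into the bases in lower case, and not all of these overlap the one marked:
Cxcl10, chr5:92349083-92349112, minus strand: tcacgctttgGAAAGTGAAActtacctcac
Isg15, chr4:156200865-156200894, minus strand: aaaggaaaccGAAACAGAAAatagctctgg
Irgm1, chr11:48871425-48871454, minus strand: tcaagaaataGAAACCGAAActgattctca
Of these, Isg15 encodes a ubiquitin-like modifier and Irgm1 a guanosine triphosphatase. Isg15 was lower by -1.05 ± 0.33 (adjusted P = 0.0346) and Irgm1 by -0.35 (adjusted P = 0.024). The element was also found in members that were not called, such as Ifit1 and Gbp2.

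Glucocorticoid-responsive genes were partly higher. Of 16 tested genes, 7 were called higher, beside 6.01% of all genes, and the median was 0.76. Zbtb16 passed the filter only through tumors with cisplatin, and 6 of the 14 that passed in both kinds of tumor were called. Sgk1, a kinase, measured 119, 131, 124, 122 and 112 CPM in vehicle and 167, 215, 206, 184 and 263 CPM in cisplatin tumors (0.77 ± 0.11, adjusted P = 0.000158). Fkbp5, a cochaperone of the glucocorticoid receptor, measured 154, 231, 200, 202 and 169 CPM in vehicle and 300, 273, 305, 353 and 385 CPM in cisplatin tumors (0.76 ± 0.15, adjusted P = 0.00162). The groups did not overlap in either gene. Tsc22d3, or GILZ, was higher by 0.88 ± 0.22 (adjusted P = 0.0104) with overlap through vehicle tumor 2 at 86.1 CPM, and Zbtb16 by 2.03 ± 0.50 (adjusted P = 0.00946), again with vehicle tumor 2 the highest of its group. The receptor gene Nr3c1 was not called (-0.04). The count was 4 without vehicle tumor 1, 4 or 5 or without cisplatin tumor 5 (median 0.48 without the latter), and 2 without the 4 tumors with the most muscle RNA. The promoter window of Sgk1 held the receptor element, searched as GNACA, any 3 bases and TGTNC, on either strand. It was found in 2 of 21 windows of the list (9.52%) and in 0.475% of all windows, those of Sgk1 and Mt1 in the list. The site of Sgk1 is shown because it is the one that was called, with the element in capitals:
Sgk1, chr10:21993694-21993723, plus strand: tgcggaaaGAACAGAATGTTCtcggagatt

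Genes of the circadian clock were in part higher too. Of 18 tested genes, 7 were called higher, namely Per1, Per2, Cry1, Cry2, Dbp, Tef and Hlf, beside 6.01% of all genes, and the median was 0.34. Hlf passed the filter only through tumors with cisplatin, and 6 of the 16 that passed in both kinds of tumor were called, with a median of 0.23. The count was 5 without the 4 tumors with the most muscle RNA, and the median of the list was 0.57 with the later library codes and 0.20 by limma voom. Per2, a repressor of the clock, measured 8.05, 10.4, 10.5, 5.75 and 9.82 CPM in vehicle and 16.6, 22.8, 26.5, 46.6 and 44.8 CPM in cisplatin tumors, with tumors 4 and 5 the highest (1.82 ± 0.25, adjusted P = 0.000108). Cry1, its partner, measured 25.8, 24.9, 25.4, 24.7 and 26.5 CPM in vehicle and 28.6, 39.0, 37.5, 32.4 and 33.9 CPM in cisplatin tumors, a small change on a narrow spread (0.43 ± 0.07, adjusted P = 0.000308). The PAR bZIP output factors Hlf (2.32 ± 0.35), Tef (0.79 ± 0.13) and Dbp (0.68 ± 0.18) were higher. The activators Arntl (0.00) and Clock (-0.09) and the repressors Nr1d1 (-0.22) and Nr1d2 (-0.01) were not called. The labels give no hour of collection, so that a difference in hour and the treatment cannot be told apart. The E-box CACGTG lay in 6 of 20 windows of the list (30.0%) and in 7.15% of all windows, in the list those of Per1, Cry1 and Tef, which were called, and of Bhlhe41 and Ciart, which were not.

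**Figure D4:**
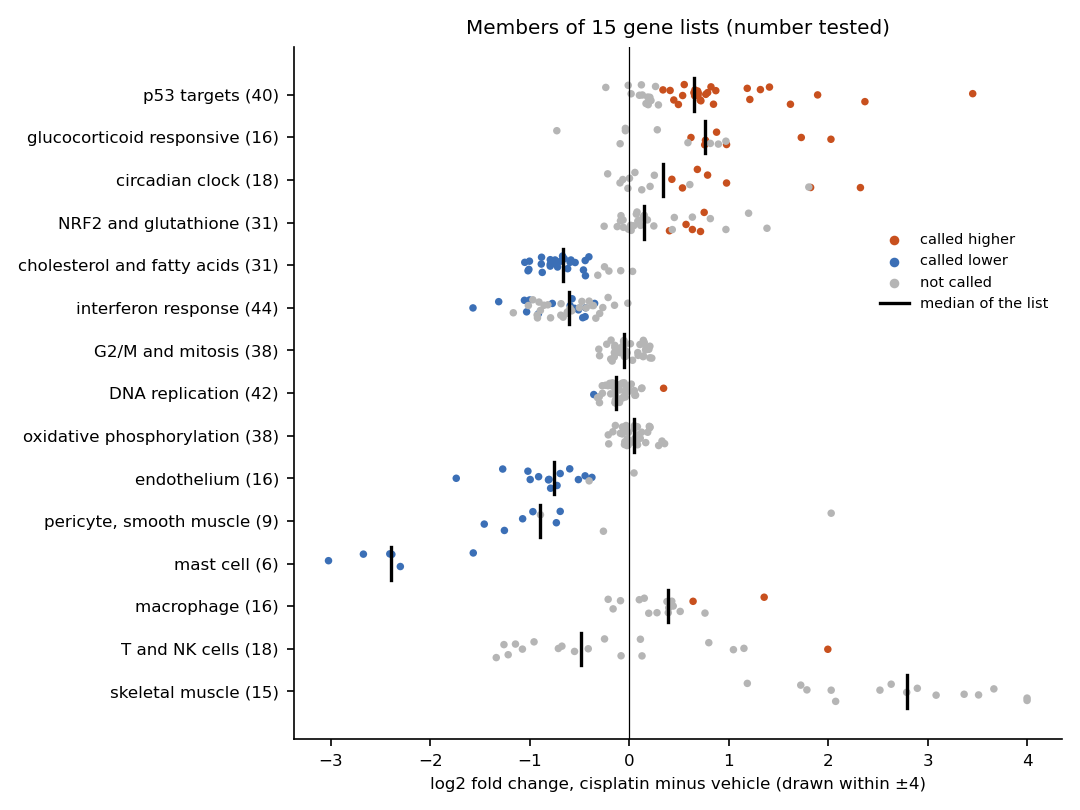
Log2 fold change of cisplatin over vehicle tumors for each tested member of 15 gene lists (x axis, drawn within ±4, with the number tested beside each name), coloured by call, with the median of the list as a black bar. Members of the p53 list lie mostly above 0, those of the cholesterol, endothelium and mast cell lists mostly below 0, and the G2/M, replication and oxidative phosphorylation lists close to 0.

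Several genes of the matrix and its proteases fell. Of 34 tested proteases, inhibitors and serpins, 8 were called lower, beside 4.57% of all genes, and 2 higher, a share near the 6.01% of all genes. One of the higher genes, the serine protease inhibitor Serpine2, had the second smallest adjusted P among the named higher genes. It measured 14.9 to 21.9 CPM in vehicle and 49.0 to 78.3 CPM in cisplatin tumors, far apart (1.87 ± 0.15, adjusted P = 2.79e-07). Mmp10, stromelysin 2, measured 18.4, 19.8, 13, 13.3 and 11.7 CPM in vehicle and 3.62, 2.64, 2.72, 1.84 and 3.07 CPM in cisplatin tumors (-2.45 ± 0.31, adjusted P = 5.02e-05). Adamts4, an aggrecanase, fell from 21.0 to 25.6 CPM in vehicle tumors to 8.81 to 11.7 CPM (-1.11 ± 0.13, adjusted P = 1.66e-05). Plau, urokinase, was lower by -0.63 ± 0.11 (adjusted P = 0.000508). These 3 genes did not overlap between the groups. Most genes of glycosaminoglycan synthesis were not called. Of 30 that passed the filter in both kinds of tumor, 4 were called lower and 2 higher, with a median of -0.07. Over all such genes 4.62% were lower and 5.81% higher. Has2, the main hyaluronan synthase, was among the lower ones, at 17.8 to 20.6 CPM in vehicle and 7.58 to 9.74 CPM in cisplatin tumors (-1.17 ± 0.14, adjusted P = 1.66e-05). Chsy1, a chondroitin synthase, measured 65.3 to 69.5 CPM in vehicle and 46.8 to 49.4 CPM in cisplatin tumors, a small change on a narrow spread (-0.47 ± 0.04, adjusted P = 4.85e-07). Of 29 integrins, laminins and nidogens, 5 were called lower and 4 higher, beside 4.57% and 6.01% of all genes: Itgb3 (-1.27), Nid2 (-1.25) and Itga2 (-1.19) fell, and Itga10, a collagen-binding integrin, rose from 6.66 to 10.2 CPM to 25.2 to 29.5 CPM (1.78 ± 0.20, adjusted P = 1.66e-05). Of 20 collagens, Col4a5 (0.67) was called higher, again a share near that of all genes.

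Some signals between tumor and immune cells were lower. Of 24 cytokines and growth factors, 6 were called lower, beside 4.57% of all genes: Tgfb3 (-0.84 ± 0.11, adjusted P = 4.54e-05), Il12b (-1.40), Il33 (-0.53), Inhba (-0.70), Tnfsf10 (-1.13) and Spp1 (-0.32). Il12b passed the filter only through tumors without cisplatin, and 5 of the 20 that passed in both kinds of tumor were called. Il6 (-0.76, adjusted P = 0.184) and Tnf (0.11, adjusted P = 0.752) were not called. Of 33 chemokines and receptors, Ccr1 (0.50) was called higher and 3 were lower, beside 6.01% and 4.57% of all genes, Cxcr2 and Cxcl10 among them, while Ccl2, a monocyte chemokine, was at -0.45 (adjusted P = 0.0823). Of 19 ligands of immune checkpoints and costimulation, Cd80 (1.62) and Tnfsf4, the OX40 ligand (1.51 ± 0.29, adjusted P = 0.00132), were called higher, and Cd40 (-0.84), Cd200 (-0.85) and Nectin2 (-0.42) lower, beside the same shares. Cd274, which encodes PD-L1, was not called (-0.25). Of 16 genes of the adenosine pathway, with a median of 0.03, 2 were called lower and 1 higher, again beside these shares. Nt5e, the ecto-enzyme CD73 that makes adenosine, was lower by -0.66 ± 0.15 (adjusted P = 0.00476) and the receptor Adora2b by -0.49 ± 0.13 (adjusted P = 0.0112). Cd38, an enzyme of the route from NAD to adenosine, was higher by 0.32 (adjusted P = 0.0499, at the threshold), and lost its call in 13 of 23 alternatives. Adora2a, the receptor that KW6002 blocks, was near 1 CPM or below in all 10 tumors and was not called (-0.98 ± 0.37, adjusted P = 0.0724).

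Among single genes, those with the smallest adjusted P included several outside these groups. Ppl, which encodes the desmosomal linker periplakin, measured 4.14, 7.21, 6.17, 5.01 and 5.45 CPM in vehicle and 21.0, 26.7, 25.9, 36.4 and 41.1 CPM in cisplatin tumors (2.43 ± 0.20, adjusted P = 4.85e-07). Of the 9 tested genes of desmosomes and the cornified envelope it was the 1 that was called, and with 9 genes nothing is read from that count beside 6.01% of all genes. Angptl7, a secreted angiopoietin-like protein, rose from 8.62 to 13.6 CPM to 42.8 to 75.4 CPM (2.26 ± 0.19, adjusted P = 9.89e-07). The glutamate receptor subunit Gria3 (2.22 ± 0.22), the purinergic receptor P2ry14 (1.26 ± 0.12), Klra4 (1.46 ± 0.14), Sytl1 (2.67 ± 0.26) and Glipr1 (0.99 ± 0.10) rose without overlap. On the lower side, Rgl1, a Ral exchange factor, measured 144, 135, 133, 142 and 141 CPM in vehicle and 92.7, 83.5, 88.5, 95.1 and 98.7 CPM in cisplatin tumors. The spread was small in both groups (-0.60 ± 0.06, adjusted P = 1.26e-06). Ermp1 (-0.70 ± 0.07) and Lmo7 (-0.82 ± 0.09) fell likewise. Of 25 imprinted genes, 7 were called lower, beside 4.57% of all genes. Peg10, a gene of retrotransposon origin, measured 140, 125, 133, 129 and 124 CPM in vehicle and 70.2, 58.4, 49.6, 47.1 and 61.7 CPM in cisplatin tumors (-1.18 ± 0.11, adjusted P = 1.08e-06), and Mest (-1.32) and Peg3 (-0.59) were lower too. Slc22a18 (1.53) was called higher but passed the filter only through tumors with cisplatin. Among the genes with the largest changes, Chil3, a chitinase-like protein of macrophages, was higher by 2.36 ± 0.41 (adjusted P = 0.000985), and the mechanosensitive channel Piezo2 (-2.14 ± 0.28, adjusted P = 4.54e-05) and Clca2 (-2.07 ± 0.30, adjusted P = 0.000113) were lower, each without overlap. The microsomal glutathione transferase Mgst2 and the alcohol dehydrogenase Adh1 were also called higher.

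The same contrast of cisplatin with no cisplatin was available in the tumors that received KW6002, which share no library with the 10 above. There, 2100 genes were called higher (12.6%) and 1784 lower (10.7%). Of the 1001 genes higher after cisplatin alone, 977 (97.6%) had the same direction and 790 (78.9%) were called higher in the KW6002 tumors, with a median log2 fold change of 0.73. Of the lower genes, 747 (98.2%) had the same direction and 576 (75.7%) were called lower, with a median of -0.62. One gene, Enpp2 or autotaxin, was called in opposite directions (-0.35 and 0.42). The p53 list had 26 of 40 members called higher there, the cholesterol list 26 of 31 lower, the endothelium list 11 of 16 lower and the mast cell list 5 of 6 lower. The interferon list had 42 of 44 called lower there, with a median of -1.29 beside -0.61 after cisplatin alone. Its difference was not called for any single member by the edgeR interaction term (13 at an unadjusted P under 0.05, 1 called by DESeq2). Over all genes this term called 11, of which Ptgfr, Enpp2, Arhgap4 and Stk38 were also called after cisplatin alone, genes named here after their values were seen. With the replicate number as a block the term called 0 (1899 at an unadjusted P under 0.05), and by DESeq2 it called 252.

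**Figure D5:**
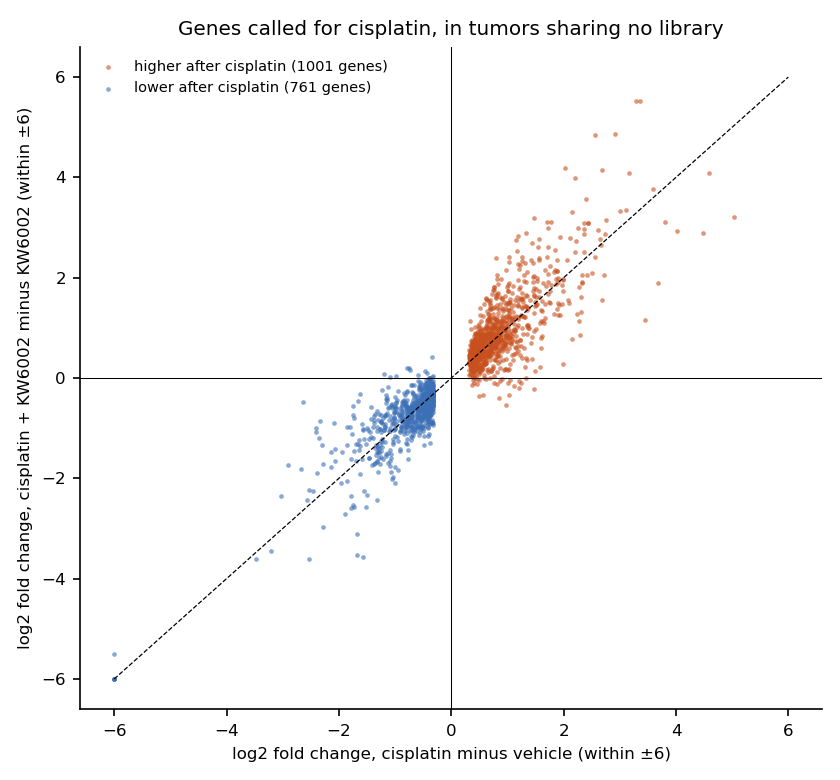
Genes called after cisplatin alone (1001 higher in orange, the lower ones in blue), with their log2 fold change in these tumors on the x axis and in the tumors of mice given KW6002 on the y axis, both drawn within ±6. Nearly all points keep their sign, and the dashed line marks equal change.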

How the data were processed

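Poly(A) RNA of each tumor was made into a stranded library and read as single 50 base reads. The authors aligned the reads to mm10 with STAR, kept unique alignments and counted them per gene with HTSeq 0.6.1p1 in union mode; the deposited values are these raw counts, not normalized. The strand setting is not given in the sources used here, so overlapping and antisense genes are uncertain. All 20 columns of the table were mapped to tumors by name (0 left unused).

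Counts of all 20 tumors were fitted with edgeR 4.0.16 in R 4.3.3 (TMM scaling, filterByExpr by group, robust quasi-likelihood test on 4 group means), with Benjamini-Hochberg adjustment over 16665 genes that held 99.9% of the reads. DESeq2 1.42.0 and limma 3.58.1 voom were alternatives, as were other scalings, filters, fold limits, library code terms and leaving out each tumor. All adjusted P values in the text come from these models. CPM use TMM-scaled library sizes, and a group at 0 a floor of 3 counts. The log CPM behind the principal components use a prior count of 2. Fold changes are those of the edgeR fit at its default prior count, so those of genes with few reads are shrunk little. CPM are not per length, so levels are not compared between genes. No pair of libraries within the vehicle or within the cisplatin group agreed within sampling noise, and other pairs were not compared. The SE was taken as the size of the log2 fold change over the square root of its edgeR F statistic, from the fit of all 20 tumors. The floor covers counting error only, while SE and SD include the spread between tumors.

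Genes were named by a rule: the 12 higher and 12 lower protein-coding genes with the smallest adjusted P, the 8 and 8 with the largest change (mean of at least 50 counts, no overlap), up to 4 called genes per list, and a fixed set of single genes such as Cdkn1a, Trp53 and Mki67. Not every gene chosen from a list is printed. Other list members given with values were picked after these were seen. The contrast, the gene lists and the rule were chosen with earlier results of these data known. Gene names are those of the table, and promoter sequences are RefSeq's on GRCm38.p6. The authors' own analysis used DESeq2. Some genes counted in the lists are not reported by name here.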

Additional observations from a re-analysis of the deposited data

Results flagged for a closer look

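In groups of 5 tumors, a value was singled out when the gap from the highest or the lowest tumor to its neighbour took an unusually large part of the range of the group (Dixon's test at 95%). It was applied to 318 groups over 159 named genes and marked 28 of them (8.8%). Its chance rate of about 1 in 20 groups holds for independent normal values. CPM need not be normal and the genes are related, so nothing is read from 8.8% beside that rate. No gene of that set differed in its effect between tumors without and with KW6002 by the edgeR interaction term. Of the other genes called after cisplatin alone, 4 did: the log2 effect with KW6002 minus that without was 0.88 for Ptgfr, 0.77 for Enpp2, 0.80 for Stk38 and -0.92 for Arhgap4 (adjusted P = 0.0351 to 0.0391). These calls depended on the fit: with the replicate block the term called 0 genes, and by DESeq2 252.

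Among vehicle tumors, tumor 2 was the highest in Fabp4 (169 CPM, next 32.5), Tsc22d3 (86.1, next 57.1) and Zbtb16 (0.844, next 0.261), and this tumor also held the most adipocyte marker RNA. Vehicle tumor 3 was the highest in Atp2a1 (7.64 CPM, next 0.276), Nid2 (31.6, next 22.4), Atf5 (34.7, next 27.9) and Tnfsf4 (0.555, next 0.359), and it held the most muscle and endothelial marker RNA of its group. Vehicle tumor 4 was the highest in Alas2 (8.97 CPM, next 3.59) and Slc31a2 (37.5, next 31.2), and vehicle tumor 1 in Il6 (2.66, next 1.18). The part of these marker levels in the values was not tested.

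Among cisplatin tumors, tumor 3 stood apart in Gzmf (14.9 CPM, next 6.09), Gzmd (7.56, next 3.1) and Gzmg (6.32, next 2.67), and was the lowest in Mki67 (289, next 340). Cisplatin tumor 1 was the highest in Fdft1 (59.7 CPM, next 42.6), Col4a5 (69.1, next 55.1), Itgb3 (17.3, next 12.7), Nt5e (10.5, next 7.9) and Pcdh12 (2.64, next 1.45). In these genes apart from Col4a5 the high tumor was the one nearest to the vehicle group. Cisplatin tumor 2 was the highest in Top2a (659 CPM, next 559) and Mgst2 (41.7, next 34.3) and the lowest in Zbp1 (7.34, next 12.9). Cisplatin tumor 4 was the highest in Kdr (13.2 CPM, next 9.12), Esam (13.5, next 10.7) and Ighm (14.8, next 6.26). Cisplatin tumor 5 was the highest in Myc (440 CPM, next 303), Hspa1a (1.95, next 0.644) and Il6 (1.38, next 0.613).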

How the results depend on the processing

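The 1762 calls became 1932 by DESeq2, 1805 by limma voom, 1469 to 1511 under the other filters, 1269 when the 10 tumors were fitted alone and 1379 to 2067 when 1 tumor was left out (lowest without vehicle tumor 4, highest without cisplatin tumor 1). Without the fold limit 2752 genes passed (1373 lower), and a test against that limit left 447 (260 higher, 187 lower). The later library codes alone gave 2743 (1550 higher, 1193 lower). Without the 4 tumors with the most muscle RNA, an alternative chosen after seeing the data, 1101 were called (643 higher, 458 lower). The 11 interaction calls (6 higher, 5 lower) became 252 by DESeq2 (143 higher, 109 lower) and 0 with the replicate block (0 higher, 0 lower; 1899 at an unadjusted P under 0.05). The cause was not tested for any of these. Replicate numbers did not pair the tumors. Between same-numbered tumors, the deviations of log CPM from the group mean correlated at -0.356 to 0.161. By this measure 1 of 5 cisplatin tumors was closest to its own number, and the replicate block gave 1610 calls. Of 141 called named genes, 125 could be run in all 23 alternatives and 59 of these kept their call in each; 126 of the 141 kept it in every fit without 1 tumor, and 0 reversed. The test against the fold limit moved list counts from 15 to 1 for interferon, 26 to 15 for cholesterol, 14 to 8 for endothelium, 6 to 3 for pericytes, 7 to 3 for the clock and for glucocorticoid genes. Without a low-count filter interferon had 9 and glucocorticoid genes 4, and a filter of 10 counts in every tumor left 2 mast cell calls, since fewer genes were tested. With 5 tumors a group and 28.8 to 39.3 M reads, genes of a few reads per library are limited by counting error.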

Other observations

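Enzymes of aldehyde and xenobiotic metabolism, looked at by gene family after their values were seen, held several genes called higher. Members that passed the filter only through tumors with or only through tumors without cisplatin were left out, Ces2e among them, which was called higher. Of the others, 3 of 14 Aldh genes, 2 of 3 Adh genes and 2 of 6 Fmo genes were called higher by edgeR, beside 6.01% of all genes. Of 13 listed Ugt genes, 3 were left and called higher, but these are Ugt1a genes of a single locus that share exons, so that their separate values are uncertain. The glutathione transferases had 5 of 14 higher and 1 lower, and the cytochromes P450 5 of 22 higher and 1 lower, beside 4.57% of all genes lower. These are small and chosen families, and nothing is read from their counts. Adh1, an alcohol dehydrogenase, was higher by 3.17 on the log2 scale, Ces2g, a carboxylesterase, by 2.42, and Aldh1a1, a retinaldehyde dehydrogenase, by 2.68.

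Gene length was looked at in protein-coding genes only. The median log2 fold change was 0.05 over 3320 such genes under 10 kb and -0.01 over 186 above 400 kb. Of those above 400 kb, 11.3% were called higher and 6.45% lower, beside 5.99% and 4.16% of those under 10 kb. Over all genes tested, noncoding ones included, the shares were 6.01% and 4.57%.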
